A study of Homo sapiens with 12 samples.

Results

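L1PA5_3end, L1MA5_3end and L1MA8_3end are models of the 3′ ends of 3 subfamilies of LINE-1 (L1), a retrotransposon family of the human genome. They are the 3 L1 subfamilies that the deposited tables hold with a 3′ model and no 5′ model. They were chosen by name, as 3 of 45 tabulated repeat elements, with earlier results of these data known. Each has a count on a plus and on a minus strand, so that they give 6 of 90 features, and all 6 passed the filter on low counts that left 70 features. The sources used here do not say which of the strands is the sense one.

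A full-length L1 carries a promoter at its 5′ end, open reading frames for an RNA-binding protein and for a reverse transcriptase, and a 3′ end with the polyadenylation signal. Reverse transcription starts at the 3′ end of the RNA and often stops early, so most genomic copies are truncated at the 5′ side and keep the 3′ end. L1PA subfamilies are primate-specific, and L1PA5 is younger than L1MA5, which is younger than L1MA8; none of the 3 is the subfamily that still moves in humans. SETDB1 methylates histone H3 at lysine 9 and is recruited to repeats through KRAB zinc finger proteins and TRIM28, a pathway known for silencing retroviral and L1 sequences.

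Stranded total RNA was sequenced from THP-1, a monocyte-like cell line established from an acute myeloid leukaemia. All cells were transduced with a single guide RNA (sgRNA) and put under 1 µg/ml puromycin 48 h later, and 100 ng of RNA entered each library. There were 4 groups of 3 libraries: SETDB1 sgRNA 9 at day 4, non-targeting sgRNA at day 4, SETDB1 sgRNA 9 at day 7 and non-targeting sgRNA at day 7. The design text also names a SETDB1 sgRNA 6, but each SETDB1 title names sgRNA 9, and the groups follow the titles; the effect of 1 guide cannot be told apart from that of losing SETDB1. Whether a group's libraries stem from separate cultures is not stated in the labels, so the tests here weigh differences against a spread between libraries that may be technical. The tables hold no row for SETDB1 or for monocyte markers, so neither the depletion nor the cell type was checked here, and in bulk RNA more cells with a transcript and more transcript per cell cannot be told apart. Table totals ran from 27388 to 58916 counts per library. The sources used here do not state how deeply the libraries were sequenced, and levels are therefore counts per 1000000 counts of the 45 tabulated elements (CPM), scaled by trimmed-mean (TMM) factors of 0.914 to 1.07, so that a change means a change relative to the other elements.

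L1PA5_3end was one of the most abundant elements and the other members were minor ones. Over the 12 libraries L1PA5_3end held 115499 counts, 23.2% of all counts and second to the open reading frame 2 model L1P1_orf2. L1MA5_3end held 9862 counts (1.98%, rank 7) and L1MA8_3end 8012 counts (1.61%, rank 10). These amounts are not per length, since the sources used here do not state the lengths of the models, and copies that share sequence could be split between the models by the counting. In the non-targeting libraries at day 4 the order was L1PA5_3end minus strand (165659 ± 17554 CPM), L1PA5_3end plus strand (87775 ± 17168 CPM) and L1MA5_3end minus strand (14303 ± 2879 CPM; SD, n = 3). L1MA8_3end minus strand (8318 ± 1238 CPM), L1MA8_3end plus strand (6904 ± 1843 CPM) and L1MA5_3end plus strand (6044 ± 762 CPM; SD, n = 3) followed. The libraries of neighbours in this last run overlapped, while those of L1MA8_3end minus strand (6928 CPM or more) lay above those of L1MA5_3end plus strand (up to 6669 CPM). The minus strand was the larger one for each member in every library. Over the whole table it also took most counts, with group means of 69.9% to 74.6%.

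The 3 members together made up 31.3% ± 0.8 of the table in the non-targeting libraries at day 7 and 23.3% ± 0.8 in the SETDB1 libraries (SD, n = 3). At day 4 the shares were 29.9% ± 3.6 and 25.2% ± 1.0 (SD, n = 3). L1PA5_3end alone took 27.7% ± 0.8 without and 19.6% ± 0.5 with SETDB1 sgRNA 9 at day 7 (SD, n = 3), while its mean raw count was nearly the same in both arms, 9635 ± 2137 and 9818 ± 2091 (SD, n = 3).

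**Figure D1:**
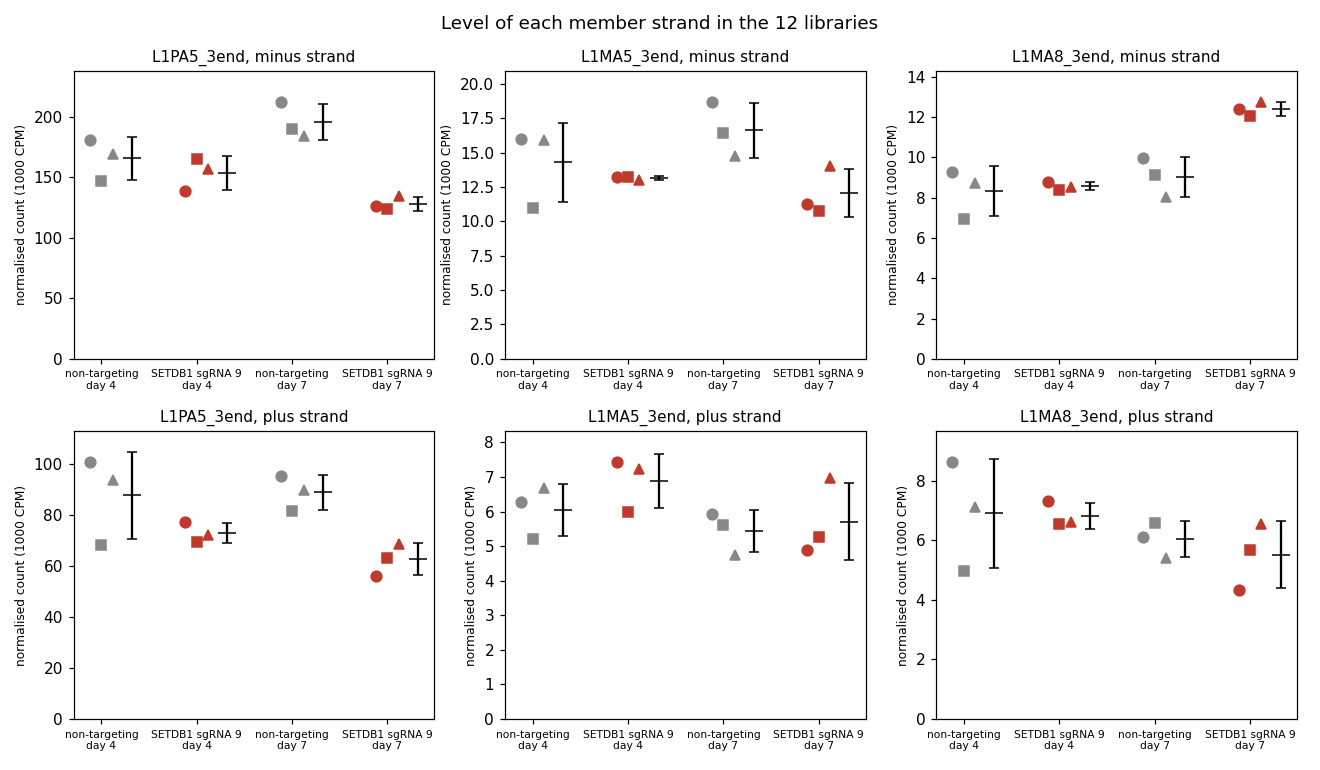
Normalised counts (in units of 1000 CPM, linear axes from 0) of the minus (top) and plus (bottom) strand of each member, with a circle, square and triangle for replicates 1, 2 and 3 and the mean ± SD (n = 3) beside them. At day 7 the SETDB1 libraries lie below the non-targeting ones on both strands of L1PA5_3end and on the minus strand of L1MA5_3end, and above them on the minus strand of L1MA8_3end.

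After 7 days of SETDB1 sgRNA 9 the youngest member fell relative to the table on both strands, L1MA5_3end fell on its minus strand, and the oldest member rose on its minus strand. L1PA5_3end minus strand stood at 126496, 123477 and 134405 CPM in the SETDB1 libraries and at 212477, 190075 and 184380 CPM in the non-targeting ones. All 3 SETDB1 libraries lay below all 3 non-targeting libraries. The difference was 1.53-fold, a log2 change of -0.61 ± 0.12 (SE, adjusted p = 6.83e-05 by edgeR's quasi-likelihood test with the Benjamini-Hochberg method over 70 features).

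L1PA5_3end plus strand stood at 56303, 63412 and 68725 CPM against 95537, 81700 and 89742 CPM. The arms again did not overlap, and the log2 change was -0.50 ± 0.13 (SE, edgeR adjusted p = 0.00195). In raw counts the arms of both L1PA5_3end strands overlapped, with 5127, 7378 and 7197 counts against 8240, 6456 and 5198 on the minus strand. The SETDB1 to non-targeting ratio of raw means was 0.990 for the minus and 1.08 for the plus strand, so the fall is one in share of the table. Unscaled counts gave log2 changes of -0.014 on the minus and 0.11 on the plus strand, neither of which passed (edgeR adjusted p = 0.959 and 0.714).

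L1MA5_3end fell on the minus strand, with 11300, 10778 and 14044 CPM in the SETDB1 and 18721, 16428 and 14756 CPM in the non-targeting libraries at day 7. The arms did not overlap, though the SETDB1 library at 14044 lay close to the non-targeting one at 14756. The log2 change was -0.47 ± 0.14 (SE, edgeR adjusted p = 0.00598), and it did not pass without non-targeting day 7 replicate 1 (-0.37, edgeR adjusted p = 0.0642) or in unscaled counts (0.13, adjusted p = 0.642). The plus strand of L1MA5_3end had 4885, 5255 and 6966 CPM against 5931, 5623 and 4753 CPM, with a log2 difference of 0.07 ± 0.15 that did not pass (edgeR adjusted p = 0.745). An interval of 2 SE around it runs from -0.24 to 0.37, and its sign turned with DESeq2 size factors, without the 3 members or any L1 model in the scaling, with the day 7 groups fitted alone, and without any of 3 single libraries (non-targeting day 4 replicate 2, -0.063; SETDB1 sgRNA 9 day 7 replicate 3, -0.10; non-targeting day 7 replicate 3, -0.010).

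L1MA8_3end minus strand was the 1 member feature that rose. It stood at 12386, 12083 and 12774 CPM with SETDB1 sgRNA 9 and at 9953, 9127 and 8017 CPM with the non-targeting sgRNA at day 7. The arms did not overlap, and they did not overlap in raw counts either, with 502, 722 and 684 against 386, 310 and 226. Raw counts leaned upward at day 7, where table totals were 38524 to 57211 with SETDB1 sgRNA 9 and 27388 to 42445 without. Unscaled counts called 37 features of the table higher and 1 lower. How many features had raw counts that did not overlap was not measured. The rise of L1MA8_3end minus strand was 1.37-fold, a log2 change of 0.46 ± 0.13 (SE, edgeR adjusted p = 0.00401). It kept its direction in all settings tried but missed the threshold when the members (0.21, adjusted p = 0.214) or all L1 models (0.28, adjusted p = 0.0920) were left out of the scaling and when the day 7 groups were fitted alone (0.24, adjusted p = 0.109). It also missed it without SETDB1 sgRNA 9 day 7 replicate 2 (0.41, edgeR adjusted p = 0.0553) and without non-targeting day 4 replicate 2, a library of the shared fit only (0.34, edgeR adjusted p = 0.0550). Its plus strand had 4318, 5690 and 6555 CPM against 6111, 6595 and 5392 CPM, a log2 difference of -0.12 ± 0.16 that did not pass (edgeR adjusted p = 0.570; 2 SE interval -0.45 to 0.20).

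In all, 1 of the 6 member features was higher and 3 were lower at day 7 (edgeR), when 55.7% of the 70 features were called. By direction, 30% of all features were called higher and 25.7% lower. The same 4 features had arms that did not overlap, against 55.7% of all features (31.4% higher, 24.3% lower). A call was thus common in the table at this day, and the count of members called was near that background. The median log2 change of the 6 was -0.30, and that of all 70 features was 0.16. The split of calls depended on the scaling: unscaled counts moved the median of all features by 0.60 and gave 3 higher members and 0 lower, at 0.67 for L1MA5_3end plus strand, 0.50 for L1MA8_3end plus strand and 1.05 for L1MA8_3end minus strand. Over all features 21 were higher and 18 lower, which changed to 11 and 20 without the members in the scaling, which moved the median by -0.24, 11 and 19 without any L1 model (median moved by -0.17) and 37 and 1 without scaling. The 5 scaled alternatives gave -0.86 to -0.53 for L1PA5_3end minus strand, -0.75 to -0.42 for its plus strand and -0.71 to -0.39 for L1MA5_3end minus strand, and these 3 passed in each of the 5. For L1MA8_3end minus strand they gave 0.21 to 0.54, and 3 of the 5 passed.

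**Figure D2:**
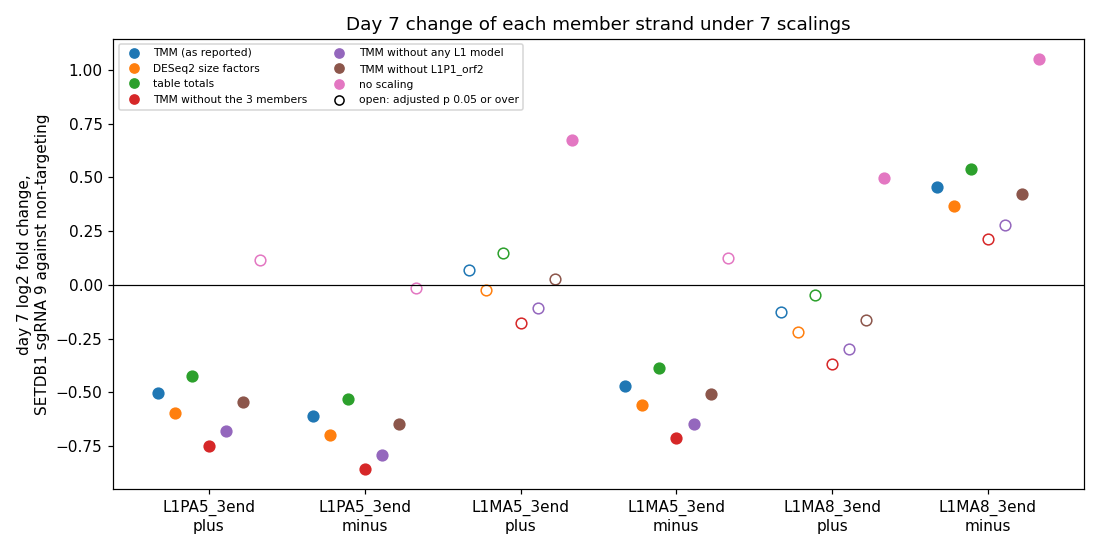
Day 7 log2 fold change of each member strand (SETDB1 sgRNA 9 against non-targeting, n = 3 libraries an arm) under TMM scaling of the table and 6 other scalings, with filled points for an adjusted p under 0.05. Both strands of L1PA5_3end and the minus strand of L1MA5_3end lie below 0 in each scaled fit and near 0 without scaling, and the minus strand of L1MA8_3end lies above 0 in all 7.

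At day 4 no member differed between the arms beyond the spread of the libraries. L1PA5_3end plus strand had 77418, 69476 and 72055 CPM with SETDB1 sgRNA 9 and 100952, 68361 and 94012 CPM with the non-targeting sgRNA. The non-targeting library at 68361, replicate 2, was the lowest of the 6. The log2 change was -0.27 ± 0.13 (SE, edgeR adjusted p = 0.158), and without that library it was -0.41 and passed (edgeR adjusted p = 0.0158). L1PA5_3end minus strand had 138490, 165382 and 156490 CPM against 181020, 146525 and 169431 CPM, with overlapping arms and a log2 difference of -0.11 ± 0.12 (SE, edgeR adjusted p = 0.556).

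The older members were as close between the arms at day 4. L1MA5_3end minus strand had 13220, 13263 and 13018 CPM against 16031, 10980 and 15899 CPM (log2 -0.12 ± 0.14, edgeR adjusted p = 0.593). Its SETDB1 libraries were alike and the non-targeting ones spread on both sides of them. L1MA8_3end minus strand had 8786, 8390 and 8551 CPM against 9301, 6928 and 8724 CPM (log2 0.04 ± 0.13, edgeR adjusted p = 0.895). The plus strands had log2 differences of 0.19 ± 0.15 for L1MA5_3end (adjusted p = 0.418) and -0.02 ± 0.16 for L1MA8_3end (edgeR adjusted p = 0.954).

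Calls at day 4 numbered 0 of 6 members in edgeR and 0 in DESeq2, where 24.3% of the 70 features were called, and 1 member had an unadjusted p under 0.05 with either tool. The arms overlapped for all 6, while 25.7% of all features had arms that did not. The median log2 change of the members was -0.07, and that of all features was 0.04. Scaling by table totals called both strands of L1PA5_3end lower (-0.37 plus, -0.22 minus; edgeR adjusted p = 0.0225 and 0.0353), scaling without the members called its plus strand lower (-0.37, adjusted p = 0.0432), and unscaled counts called 3 members higher, L1MA5_3end plus strand (0.82), L1MA8_3end plus strand (0.59) and L1MA8_3end minus strand (0.66).

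**Figure D3:**
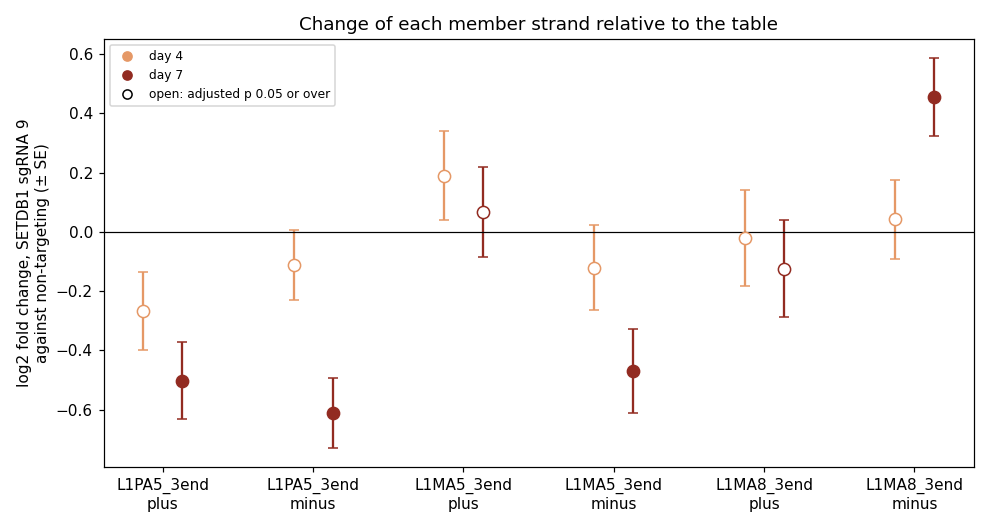
Log2 fold change (± SE) of each member strand, SETDB1 sgRNA 9 against non-targeting, at day 4 and day 7, with 3 libraries an arm and filled points for an adjusted p under 0.05. The 6 values of day 4 are open, and those of day 7 are filled for L1PA5_3end plus and minus (-0.50 and -0.61), L1MA5_3end minus (-0.47) and L1MA8_3end minus (0.46).

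The difference between the days was itself tested. No member passed in edgeR, where 5.71% of the 70 features were called, and 2 had an unadjusted p under 0.05. DESeq2 called 1 member and 11 of all features, where edgeR called 4 of all features. For L1PA5_3end minus strand the SETDB1 effect was lower at day 7 by a log2 difference of -0.50 ± 0.17 (SE, edgeR adjusted p = 0.0525), and for L1MA8_3end minus strand it was higher by 0.41 ± 0.19 (edgeR adjusted p = 0.160). L1PA5_3end minus strand passed in DESeq2 (-0.60, adjusted p = 7.89e-05), with DESeq2 size factors in edgeR (-0.60, adjusted p = 0.00377), without the members, any L1 model or L1P1_orf2 in the scaling (-0.64, -0.69 and -0.54), and without SETDB1 sgRNA 9 day 4 replicate 1 (-0.57, adjusted p = 0.0136) or non-targeting day 4 replicate 2 (-0.54, edgeR adjusted p = 0.0405). L1PA5_3end minus strand did not pass with table totals (-0.31, edgeR adjusted p = 0.0610) or without scaling (-0.51, adjusted p = 0.632). Leaving out any other single library, it did not pass either (edgeR adjusted p up to 0.172). Of all features 8 were called with DESeq2 size factors in edgeR, and 8, 11 and 6 without the members, any L1 model or L1P1_orf2. The other 4 member features had differences between -0.35 and -0.10 that did not pass.

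Over time within an arm, L1MA8_3end minus strand rose in the SETDB1 cells, from 8576 ± 199 at day 4 to 12414 ± 346 CPM at day 7 (SD, n = 3). The libraries of the days did not overlap for this feature, and the log2 change was 0.53 ± 0.13 (SE, edgeR adjusted p = 0.00229). It did not pass without SETDB1 sgRNA 9 day 7 replicate 2 (0.45, edgeR adjusted p = 0.0780), without scaling (0.61, adjusted p = 0.0625) or with all L1 models left out of the scaling (0.27, adjusted p = 0.0968). In the non-targeting cells it went from 8318 ± 1238 to 9032 ± 972 CPM (SD, n = 3), a log2 change of 0.12 ± 0.14 that did not pass (edgeR adjusted p = 0.779). L1PA5_3end minus strand had 153454 ± 13701 and then 128126 ± 5643 CPM with SETDB1 sgRNA 9, and 165659 ± 17554 and then 195644 ± 14853 CPM with the non-targeting sgRNA (SD, n = 3). Neither change passed (log2 -0.26 ± 0.12 and 0.24 ± 0.12, edgeR adjusted p = 0.134 and 0.336), although the libraries of the days did not overlap in either arm.

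Called over time were 1 of 6 members in the SETDB1 cells, where 12.9% of all features were called (11.4% higher), and 0 of 6 in the non-targeting cells, where 5.71% were. Days that did not overlap were seen for 3 of 6 members in the SETDB1 cells, 1 higher and both strands of L1PA5_3end lower, against 34.3% of all features (20% higher, 14.3% lower). In the non-targeting cells they were seen for L1PA5_3end minus strand, higher, against 18.6% of all features (11.4% higher). DESeq2 called 2 members in the SETDB1 and 1 in the non-targeting cells. It called 17 and 9 of all features there, where edgeR called 9 and 4. No member had an unadjusted p under 0.05 in edgeR in the non-targeting cells. Without non-targeting day 4 replicate 2, which is in neither group of that contrast, 5 members were called in the SETDB1 cells, 4 of them lower: both strands of L1PA5_3end (-0.38 plus, -0.42 minus) and the plus strands of L1MA5_3end (-0.44) and L1MA8_3end (-0.48). Refits that left out 1 library called 7 to 24 of all features over time in the SETDB1 cells, against 9 with all libraries. The labels name no sequencing batch, so the days and a batch that runs with them cannot be told apart.

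The minus strand share of a member is a ratio within a library and does not depend on scaling between libraries. At day 7 it moved in opposite directions for the older members. L1MA8_3end went from 59.9% ± 2.0 in the non-targeting to 69.4% ± 4.2 in the SETDB1 libraries, and L1MA5_3end from 75.4% ± 0.8 to 68.0% ± 1.6 (SD, n = 3). The arms did not overlap for either. L1PA5_3end stayed near the same share, at 68.7% ± 1.4 and 67.1% ± 1.8 (SD, n = 3), with overlapping arms.

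In log2 odds these day 7 changes were 0.59 ± 0.17 for L1MA8_3end (SE, edgeR adjusted p = 0.00403), -0.53 ± 0.16 for L1MA5_3end (adjusted p = 0.00678) and -0.11 ± 0.17 for L1PA5_3end (edgeR adjusted p = 0.692). The median change over the 39 elements tested was -0.42, so the fall of L1MA5_3end was close to that of the median element while L1MA8_3end moved against it. Of the 39 elements 33.3% were called, 7.69% as higher and 25.6% as lower, against 1 higher and 1 lower of the 3 members. The call of L1MA5_3end was lost without SETDB1 sgRNA 9 day 7 replicate 3 (-0.49, edgeR adjusted p = 0.0526).

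At day 4 the shares with the non-targeting sgRNA and with SETDB1 sgRNA 9 were 65.6% ± 2.3 and 67.7% ± 3.2 for L1PA5_3end, 70.1% ± 2.0 and 65.7% ± 2.7 for L1MA5_3end, and 55.1% ± 3.2 and 55.7% ± 1.0 for L1MA8_3end (SD, n = 3). The arms overlapped for all 3, and 0 of 3 passed in edgeR or in limma, where 0 also had an unadjusted p under 0.05, against 12.8% of the 39 elements called in edgeR. The shift of L1MA8_3end was larger at day 7 than at day 4 by 0.54 ± 0.23 in log2 odds, which did not pass (SE, edgeR adjusted p = 0.185; 5.13% of elements called).

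**Figure D4:**
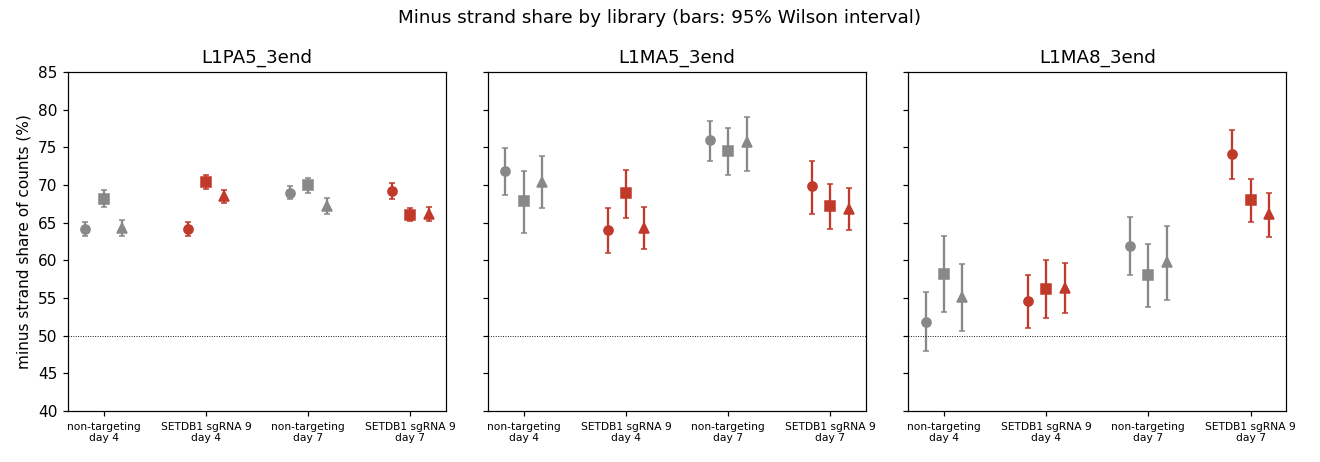
Share of each member's counts on the minus strand (percent; the axis runs from 40 to 85) in each library, with 95% Wilson intervals that cover counting error only, circles, squares and triangles for replicates 1, 2 and 3, and a dotted line at 50. At day 7 the SETDB1 libraries lie above the non-targeting ones for L1MA8_3end, below them for L1MA5_3end, and overlap them for L1PA5_3end.

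Ratios of counts within a library showed how the members moved against each other, again without scaling. On the plus strand the younger L1PA5_3end lost against L1MA5_3end: their ratio was 9.87 to 12.1 in the SETDB1 libraries and 13.2 to 18.9 in the non-targeting libraries over both days. The 6 SETDB1 values lay below the 6 non-targeting ones. The change of the log2 ratio, averaged over the days, was -0.50 ± 0.09 (SE; exact permutation of the arms within days, two-sided adjusted p = 0.0150). L1PA5_3end also lost against L1MA8_3end on the plus strand (-0.31 ± 0.09, exact permutation adjusted p = 0.0225), which did not pass without SETDB1 sgRNA 9 day 7 replicate 2 (-0.30, adjusted p = 0.0540).

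On the minus strand it was L1MA8_3end that stood apart. The ratio of L1MA5_3end to L1MA8_3end was 1.88, 1.80 and 1.84 in the non-targeting and 0.912, 0.892 and 1.10 in the SETDB1 libraries at day 7. At day 4 it was 1.72, 1.58 and 1.82 against 1.50, 1.58 and 1.52. The arms did not overlap at day 7. At day 4 they nearly met, with the lowest non-targeting library at 1.585 and the highest SETDB1 library at 1.581. The log2 ratio changed by -0.15 at day 4 and -0.93 at day 7, with a mean of -0.54 ± 0.06 (SE, exact permutation adjusted p = 0.0150). L1PA5_3end to L1MA8_3end changed by -0.16 and -1.07 at the days, a mean of -0.62 ± 0.06 (SE, exact permutation adjusted p = 0.0270). The ratio of L1PA5_3end to L1MA5_3end on the minus strand, 11.8 without and 10.7 with SETDB1 sgRNA 9 at day 7 (geometric means), did not change beyond the spread (-0.08 ± 0.08, exact permutation adjusted p = 0.360). Nor did the plus strand ratio of L1MA5_3end to L1MA8_3end (0.19 ± 0.10, exact permutation adjusted p = 0.111), which passed without non-targeting day 4 replicate 2 (0.24, adjusted p = 0.0415).

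The other 3′ models of the tables are L1PA10_3end and L1PA12_3end, of L1PA subfamilies older than L1PA5. Against their summed counts, L1MA8_3end rose on the minus strand, with day 7 ratios of 0.103 in the non-targeting and 0.228 in the SETDB1 libraries and day 4 ratios of 0.117 and 0.134 (geometric means). The mean log2 change was 0.68 ± 0.06 (SE, exact permutation adjusted p = 0.0270), and without SETDB1 sgRNA 9 day 4 replicate 3 the adjusted p was 0.0540. On the plus strand L1MA5_3end rose against them (0.32 ± 0.08, exact permutation adjusted p = 0.0150). For L1PA5_3end the differences from these models were small, at -0.18 ± 0.06 on the plus strand (adjusted p = 0.0525) and 0.06 ± 0.04 on the minus strand (exact permutation adjusted p = 0.174). The first passed without non-targeting day 4 replicate 2 (-0.23, exact permutation adjusted p = 0.0150) or non-targeting day 7 replicate 2 (-0.22, adjusted p = 0.0409). Their own day 7 changes, for comparison, were -0.55 ± 0.12 for L1PA10_3end and -0.80 ± 0.12 for L1PA12_3end on the minus strand and -0.15 ± 0.12 and -0.41 ± 0.13 for their plus strands (log2, SE); that of L1PA10_3end plus strand did not pass (edgeR adjusted p = 0.339).

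All 3 members lost against L1P1_orf2, the reverse transcriptase reading frame model, on the plus strand. L1PA5_3end had 2.21 times the plus strand counts of L1P1_orf2 in the non-targeting and 0.824 times in the SETDB1 libraries at day 7 (geometric means). At day 4 the ratios were 1.51 and 0.968. The mean log2 change was -1.03 ± 0.07 for L1PA5_3end, -0.53 ± 0.08 for L1MA5_3end and -0.72 ± 0.07 for L1MA8_3end (SE, exact permutation adjusted p = 0.0150, 0.0225 and 0.0150). L1P1_orf2 plus strand itself changed by 0.39 ± 0.14 at day 4 and 0.93 ± 0.14 at day 7 (log2, SE, edgeR adjusted p = 0.0402 and 2.19e-06), and non-targeting cells had less of it at day 7 than at day 4 (-0.52 ± 0.14, adjusted p = 0.0271). On the minus strand L1PA5_3end lost against it (-0.47 ± 0.08, exact permutation adjusted p = 0.0150), L1MA5_3end too (-0.39 ± 0.14, adjusted p = 0.0409), and L1MA8_3end did not pass, at -0.24 on day 4 and 0.55 on day 7 (exact permutation adjusted p = 0.485). For L1MA5_3end the call did not hold when any of 9 of the 12 libraries was left out, with values of -0.50 to -0.31 over the single libraries left out.

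In all, 18 ratios were tested, 11 passed after adjustment over the 18, and 12 had an unadjusted p under 0.05. Ratios between other elements were not tested, so this count has no background to be set against. The 18 also share members and reference elements, L1P1_orf2 among them, and are not independent. The smallest two-sided p that the 400 arrangements allow is 0.005, and at a single day 3 libraries against 3 cannot go below 0.1.

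**Figure D5:**
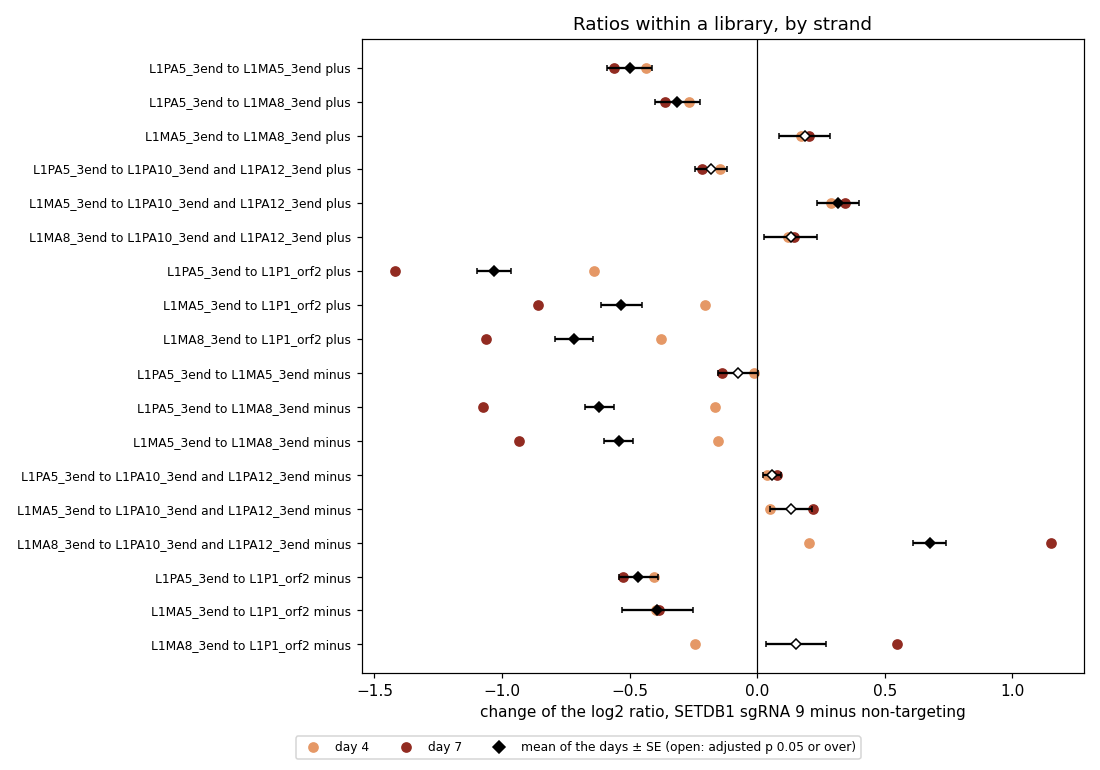
Change of the log2 ratio of a member to another element on the same strand, SETDB1 sgRNA 9 minus non-targeting, at day 4, at day 7 and as the mean of the days (diamonds, ± SE; filled for an adjusted p under 0.05). Ratios of L1MA8_3end on the minus strand and ratios to L1P1_orf2 on the plus strand have day 7 values farther from 0 than day 4 values.

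The features whose levels followed the members most closely over the 12 libraries were mostly other L1 3′ models. For L1PA5_3end minus strand they were the minus strands of L1PA10_3end and L1PA12_3end (Pearson r of log2 CPM 0.962 and 0.961), and for L1PA5_3end plus strand L1PA12_3end on its plus strand (0.930) and its minus strand (0.803). L1MA5_3end minus strand followed the minus strands of L1PA12_3end (0.862) and L1PA10_3end (0.798). L1MA8_3end minus strand had no L1 model among the features most like it. These were THE1C plus strand (0.809), a long terminal repeat, and HERVL18 plus strand (0.803), an endogenous retrovirus. The r of L1MA8_3end minus strand was -0.46 with L1PA5_3end minus strand and -0.39 with L1PA5_3end plus strand. With the group means taken off, its r with L1PA5_3end minus strand was 0.725 and those with THE1C and HERVL18 were 0.292 and 0.761. By the same measure its r was 0.901 with L1MA5_3end minus strand and 0.772, 0.683 and 0.761 with the plus strands of L1PA5_3end, L1MA5_3end and L1MA8_3end. L1MA5_3end plus strand was most like L1PA15-16_5end (0.760) and L1M2c_5end (0.734), and L1MA8_3end plus strand like L1PA12_3end (0.745) and L1M2c_5end (0.649), all on the plus strand. The plus strands of HERVL18, L1PA15-16_5end and L1M2c_5end were sparse, with 97, 235 and 160 counts over the 12 libraries. The correlations are descriptions over 12 libraries that share the scaling of 1 table. The median r with the 64 other features lay between -0.26 and 0.05.

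Among all L1 3′ models (10 tested features of 5 elements, the members included) 1 was higher and 6 were lower at day 7, with a median log2 change of -0.44, when 30% of all 70 features were called higher and 25.7% lower. The L1 5′ models (23 tested of 26 features) had 5 higher and 1 lower and a median of 0.31. At day 4 the 3′ models had 0 calls in edgeR, with 1 feature at an unadjusted p under 0.05, and a median of -0.12, and the 5′ models 4 higher and 0 lower with a median of 0.12, when 24.3% of all features were called. The LINE list as a whole (35 tested of 40 features) had 7 higher and 7 lower at day 7 and 5 higher and 0 lower at day 4, with medians of 0.08 and 0.07. Set beside all 70 features (medians 0.16 at day 7 and 0.04 at day 4), L1MA8_3end minus strand was the 1 higher 3′ feature at day 7.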

How the data were processed

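The authors deposited whole-number counts for each strand of each repeat element, with a table per day; the sources used here give no genome build and no repeat models, and do not say how multi-mapping reads were counted or how the 45 elements were chosen. The submitters' processing notes name CASAVA 1.8, BWA and HTSeq but give them no role. Each of the 24 count columns was assigned by the sample description in its header, and groups were taken from the titles. No library repeated another of its group within sampling noise (12 pairs, chi-square over degrees of freedom 1.75 to 15.4). edgeR 4.0.16 in R 4.3.3 filtered the 90 features (filterByExpr, minimum count 10, minimum total 15; 20 left out, with 0.121% of the counts) and fitted all 12 libraries with 4 groups (8 residual degrees of freedom). The Benjamini-Hochberg adjustment ran over the 70 features, a call being an adjusted p under 0.05, and each standard error came from the F statistic. Strand shares were tested in edgeR with the strands of a library as 2 columns and a block for the library; log2 ratios were tested by exact permutation of the arms within days. DESeq2 1.42.0, limma 3.58.1, other scalings, no filter, a replicate block and leaving out each library were tried. Features named as alike were the 2 with the highest correlation to each member (log2 CPM, prior count 2). The tests were run on simulated counts in which only a few features changed, as many up as down, or a few elements gained minus strand counts. The ratio test was run on independent random values. These settings lack the wide changes of the table at day 7, so they do not check how the calls depend on scaling. The members and lists were chosen with earlier results of these data known.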

Additional observations from a re-analysis of the deposited data

Results flagged for a closer look

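The libraries of the days did not overlap for L1PA5_3end minus strand in either arm, and they moved in opposite directions: each of the 3 SETDB1 sgRNA 9 libraries was lower at day 7 than all those of day 4, and each non-targeting library was higher. The difference of the SETDB1 effect between the days was -0.50 on the log2 scale and did not pass (edgeR adjusted p = 0.0525). This was not particular to the member: the days of the minus strands of L1PA10_3end and L1PA12_3end did not overlap either, in the same directions. Their differences of the SETDB1 effect were -0.41 ± 0.17 and -0.63 ± 0.17 (log2, SE, edgeR adjusted p = 0.121 and 0.0125), and that of L1PA12_3end passed.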

How the results depend on the processing

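Of 164 recomputed counts of calls among the members 142 stayed within 1.5 times the reported one. Numbers of members called that moved further were as follows, and the cause was not tested. At day 4 the 0 became 2 with table totals, 3 without scaling and 1 without the members in the scaling. For the difference between the days the 0 became 1 with DESeq2 size factors, table totals, DESeq2's test, and scaling without the members, any L1 model or L1P1_orf2; with table totals it was L1MA8_3end minus strand, higher (0.60). In the SETDB1 cells over time the 1 became 2 with DESeq2 size factors or test, 0 without scaling, and 5 without the members or any L1 model in the scaling. Of all features 24 were then called without the members (18 lower) and 32 without any L1 model (27 lower), against 9 reported (1 lower). In the non-targeting cells the 0 became 1 with DESeq2's test or without L1P1_orf2, L1PA5_3end minus strand each time (0.29 and 0.34). Leaving out 1 library gave 0 to 1 members at day 4, 3 to 4 at day 7, 0 to 1 for the difference, 0 to 5 over time with SETDB1 sgRNA 9, 1 to 2 strand shares at day 7 and 9 to 13 of the ratios.

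Signs turned as follows. Without scaling, L1PA5_3end plus and minus strands were 0.35 and 0.50 at day 4, L1PA5_3end plus strand 0.11 at day 7, L1MA5_3end minus strand 0.49 and 0.13, and L1MA8_3end plus strand 0.59 and 0.50 at days 4 and 7. L1MA5_3end plus strand at day 7 was -0.024 with DESeq2's size factors and with its test, -0.11 without any L1 model, -0.18 without the members and -0.15 with the day 7 groups alone. L1MA8_3end minus strand at day 4 was -0.060 without the members and -0.061 with table totals. With table totals the differences between the days were 0.062 for L1MA5_3end and 0.072 for L1MA8_3end plus strands. L1PA5_3end plus strand over time in non-targeting cells was -0.068 with table totals, -0.0035 without the members, -0.058 without any L1 model and -0.048 with its groups alone. With 1 library left out, L1MA8_3end ranged from -0.20 to 0.12 (plus) and -0.070 to 0.071 (minus) at day 4 and from -0.26 to 0.027 (plus) at day 7, with -0.24 to 0.061 for the difference on the plus strand, -0.033 to 0.16 over time in non-targeting cells (minus) and -0.052 to 0.13 for its day 4 strand odds; L1MA5_3end plus strand ranged from -0.10 to 0.17 at day 7, and L1PA5_3end plus strand from -0.17 to 0.078 over time in non-targeting cells. None of these values passed as a call before the sign turned except the day 7 falls of L1PA5_3end plus and L1MA5_3end minus strands, without scaling.

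With the replicate number as a block the members called were 0 at day 4, 4 at day 7, 0 for the difference, 1 over time in the SETDB1 cells and 0 in the non-targeting cells. The numbers pair nothing that the labels name: same-numbered libraries of different groups had correlations of -0.31 to 0.31, and 4 of 12 correlated best with their own number. Over all 70 features the calls ranged from 10 to 35 at day 4 (17 reported), 28 to 43 at day 7 (39), 3 to 11 for the difference (4), 6 to 32 over time in SETDB1 cells (9) and 0 to 9 in non-targeting cells (4). At day 4, where 11 were higher and 6 lower, table totals and scaling without the members each gave 8 and 9, and no scaling 35 and 0, moving the median of all features by -0.10, -0.11 and 0.62. With the day groups alone the difference between the days could not be computed, and ratios of a single day cannot reach the threshold. L1MA5_3end and L1MA8_3end rest on 134 to 752 counts a strand and library; how much of the spread is due to depth was not measured.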
